A study of Mus musculus with 10 samples.

Results

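The insulin-like growth factor (IGF) system was followed in the femurs of mice whose hindlimbs had carried no load for 24 h. It comprised the ligands Igf1 and Igf2, the receptors Igf1r and Igf2r and the binding proteins Igfbp2, Igfbp3, Igfbp4, Igfbp5, Igfbp6 and Igfbp7. A probe was taken when its gene name was one of these symbols or when its accession belonged to one of these genes, whatever its signal. This gave 17 of the 41174 gene probes on the array, for 10 of the 19505 genes with a RefSeq symbol, and all 17 were well above background on all 10 arrays.

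Total RNA from the femur of 10 male ICR mice aged 6 months, housed singly, was labelled with Cy3 and hybridised to one-colour Agilent expression arrays, with 1 array per mouse. The unloaded group held 5 mice that were hung by the tail for 24 h in a head-down tilt, free to turn and to reach food and water, and the femurs were removed under anaesthesia. The control group held 5 mice that moved freely in their cages. The unloaded mice weighed between 25.53 and 29.34 g and the control mice between 26.85 and 31.3 g. The comparison asks which transcripts of a weight-bearing bone differ after 1 day without load.

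IGF1 and IGF2 are secreted growth factors that act mainly through the IGF1 receptor, a tyrosine kinase that signals through insulin receptor substrates, PI3 kinase and Akt. The IGF2 receptor, which is also the mannose 6-phosphate receptor, carries IGF2 into lysosomes and clears it. Most IGF outside cells is held by binding proteins, which lengthen its half-life, limit its access to receptors and are cut by proteases such as pappalysins. In bone, IGF1 made by osteoblasts and osteocytes and IGF1 from the circulation both promote bone formation, and IGFs stored in the matrix are released during resorption.

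The start regions of 4 genes, Igf1r, Igfbp3, Igfbp4 and Igfbp5, are shown. They were taken because the brightest probes of these genes varied together from mouse to mouse (all 6 pairs among them, below). Igf1 also followed Igfbp3 and Igfbp5, but Igf1r and Igfbp4 less closely, and is not shown. RefSeq (GRCm38.p6) start regions were found for all 10 genes, Igf2 having 4 and Igfbp2 having 2. Each sequence is the 250 bases before an annotated transcription start, on the strand of the gene. For Igfbp3 and Igfbp4 the window lies inside the span of the gene, so its start is not the outermost one. Capitals mark the letters TATAAA (the core of a TATA box), CCAAT and GGGCGG (a GC box), searched on both strands.
Igf1r, chr7:67952007-67952256, plus strand: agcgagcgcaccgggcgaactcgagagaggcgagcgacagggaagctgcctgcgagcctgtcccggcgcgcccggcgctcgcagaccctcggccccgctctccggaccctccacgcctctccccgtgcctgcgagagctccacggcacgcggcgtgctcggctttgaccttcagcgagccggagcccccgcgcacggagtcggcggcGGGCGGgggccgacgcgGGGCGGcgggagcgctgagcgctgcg
Igfbp3, chr11:7213924-7214173, minus strand: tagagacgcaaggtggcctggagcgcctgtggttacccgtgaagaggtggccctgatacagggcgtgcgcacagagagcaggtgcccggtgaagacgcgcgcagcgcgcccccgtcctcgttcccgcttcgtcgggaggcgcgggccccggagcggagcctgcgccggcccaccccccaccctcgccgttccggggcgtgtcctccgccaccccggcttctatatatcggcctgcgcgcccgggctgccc
Igfbp4, chr11:99040994-99041243, plus strand: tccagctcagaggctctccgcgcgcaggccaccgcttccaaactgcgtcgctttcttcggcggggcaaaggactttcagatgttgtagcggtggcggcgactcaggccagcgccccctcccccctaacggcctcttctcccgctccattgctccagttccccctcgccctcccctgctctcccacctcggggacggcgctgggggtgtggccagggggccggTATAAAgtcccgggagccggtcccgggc
Igfbp5, chr1:72874866-72875115, minus strand: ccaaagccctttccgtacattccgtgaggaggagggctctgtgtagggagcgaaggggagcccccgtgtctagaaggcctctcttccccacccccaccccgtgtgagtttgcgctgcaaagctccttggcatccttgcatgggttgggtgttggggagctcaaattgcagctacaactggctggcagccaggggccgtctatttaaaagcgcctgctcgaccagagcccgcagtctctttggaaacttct

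The 4 windows shared none of these motifs. The Igf1r window held 2 GC boxes close to the start, and the Igfbp4 window held TATAAA 28 bases before it. The Igfbp3 and Igfbp5 windows held none of the 3 spellings. Among 32851 mouse windows of this length, 12.4% held TATAAA, 33.8% held CCAAT and 32.7% held GGGCGG. All 4 were richer in G and C than the median window (52.4%), at 77.6% for Igf1r, 73.2% for Igfbp3, 69.2% for Igfbp4 and 58.8% for Igfbp5.

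In RefSeq (GRCm38.p6) the other genes lie at chr10:87858265-87937047 (Igf1), chr7:142650768-142666816 (Igf2), chr17:12682406-12769706 (Igf2r), chr15:102144186-102149512 (Igfbp6) and chr5:77349240-77408045 (Igfbp7). Igfbp2, on the plus strand at chr1:72824480-72852474, and Igfbp5, on the minus strand at chr1:72858065-72874865, are neighbours whose 3′ ends face each other. Their signals did not run together over the 10 arrays (r = -0.39, rho = -0.42).

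Signals are given as log2 of the background-corrected intensity minus the 75th percentile of the same array, so that 0 is the level of the probe at that percentile. Probes differ in how strongly they hybridise, so levels are compared between mice for 1 probe and not between genes. Every difference is unloaded minus control. The test was limma across all 38629 tested probes with Benjamini-Hochberg adjustment, and a probe was called at an adjusted p below 0.05. The arrays lay on 3 slides that largely followed the groups. Slide 1 held controls 1 to 4, slide 2 held unloaded mice 1, 2 and 3 with control 5, and slide 3 held unloaded mice 4 and 5. Slide and group cannot be told apart on slides 1 and 3, and slide 2, with 1 control, gives the only difference within a slide. The array of unloaded mouse 5 stood apart, with a mean correlation of 0.972 with the others, against 0.984 to 0.987 for every other array. In such whole-tissue RNA, fewer cells of a type and less RNA per cell cannot be told apart.

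No IGF gene was called after 24 h of unloading. Of the 17 probes 6 had a positive and 11 a negative difference, with a median of -0.01 and a range of -0.40 to 0.22. The smallest adjusted p among them was 0.254. Over all tested probes 0.00259% were called, which was 1 probe, Ddit4, and the median difference was 0.07, with 62.6% of probes positive. At an unadjusted p below 0.05, 3 of the 17 stood out, 1 higher (Igfbp2) and 2 lower (1 probe of Igf1r and 1 of Igfbp5), against 16.1% of all tested probes in either direction, so their share lay near the background. The arrays of the groups did not overlap for 0 of the 17, against 3.16% of all tested probes (1.51% with the unloaded mice above and 1.65% with them below). The split by sign moved with the processing and with single arrays. It was 4 positive and 13 negative with scaling to the median, 9 and 8 with quantile normalization, 11 and 6 with body weight as a covariate, 13 and 4 with slide as a fixed block, and 10 and 7 without control 3.

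**Figure D1:**
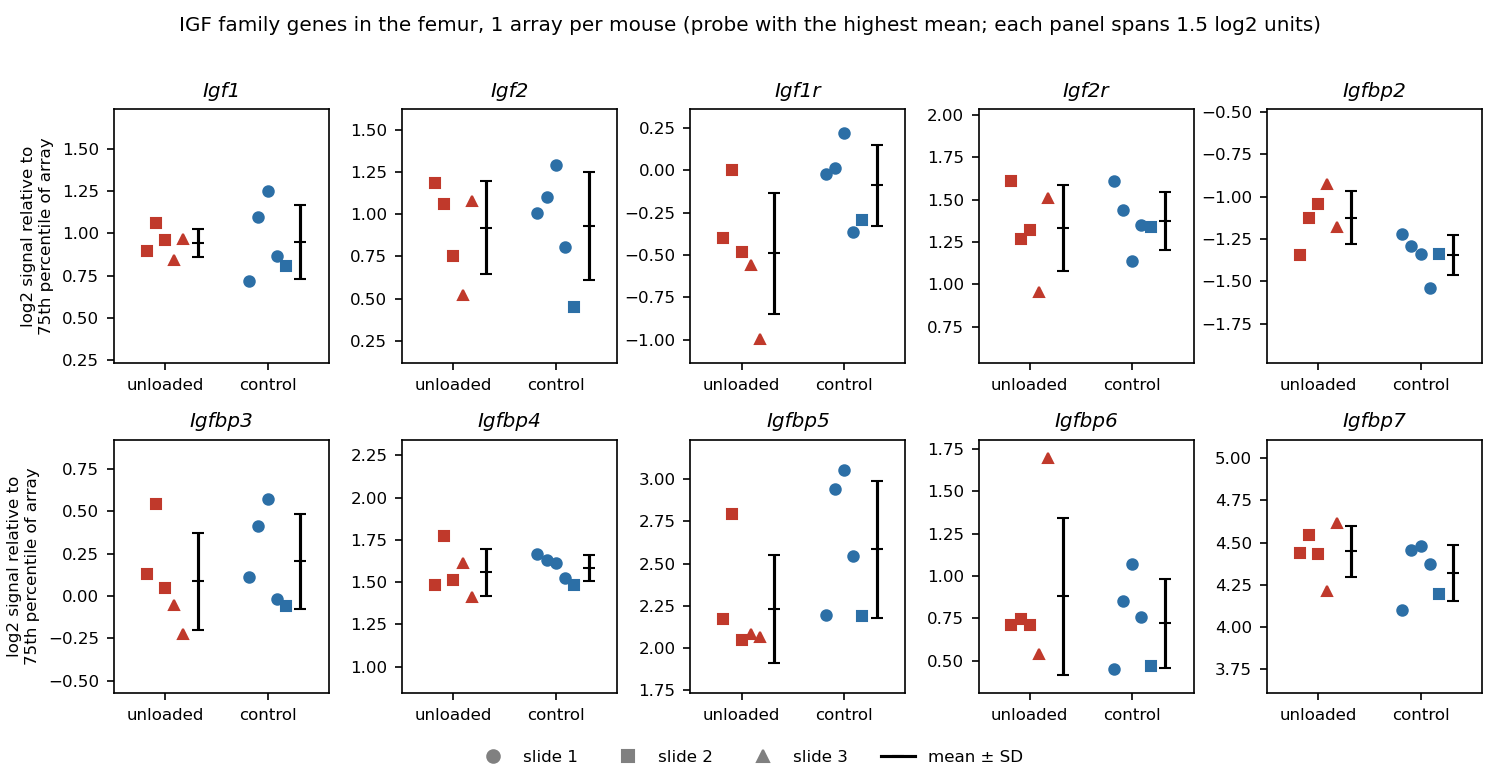
Log2 signal of the 10 IGF genes, scaled by the array's own 75th percentile, with unloaded mice left (red) and control mice right (blue), 1 point per mouse, with the mean and SD beside them and the slide as the point's shape. The groups overlap in every panel, and unloaded mouse 5 lies alone at 1.69 for Igfbp6.

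Igf1, the main growth factor of the system in bone, did not separate the groups. Its probe with the highest mean, which is spotted 10 times on each array, gave 0.89, 1.06, 0.96, 0.85 and 0.97 in unloaded mice 1 to 5, against 0.72, 1.10, 1.25, 0.87 and 0.81 in controls 1 to 5. The unloaded mice lay inside the range of the controls, and the controls were the more spread of the groups, with an SD of 0.22 against 0.08 in the unloaded mice (n = 5 each). The difference was -0.0014 (SE 0.11, 95% interval -0.24 to 0.24, limma adjusted p = 0.995), which on the linear scale covers ratios of 0.847 to 1.18. Within slide 2 the difference was 0.17.

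A further pair of probes addressed Igf1 transcripts. A_52_P536434, designed to another RefSeq transcript of the gene, followed the main probe from mouse to mouse (r = 0.90 over the 10 arrays) and differed by -0.00098 (SE 0.12). A_52_P306327, designed to a cDNA clone, did not follow it (r = -0.34). It gave -1.70 ± 0.21 in unloaded and -1.80 ± 0.18 in control mice (SD, n = 5 each), a difference of 0.10 (SE 0.12, limma adjusted p = 0.663).

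Igf2, the growth factor best known from fetal growth and from its imprinted locus, also did not separate the groups. Its probe, also spotted 10 times, gave 1.18, 1.06, 0.75, 0.52 and 1.08 in unloaded mice 1 to 5, against 1.01, 1.10, 1.29, 0.80 and 0.45 in controls 1 to 5. Each group held mice at both ends of the range. The difference was -0.01 (SE 0.16, 95% interval -0.36 to 0.34, limma adjusted p = 0.975). The other Igf2 probe, A_51_P516833, tracked it (r = 0.93) and differed by -0.05 (SE 0.14). Within slide 2 the differences were 0.55 and 0.43, where control 5, the only control, was the lowest of all 10 mice on both probes.

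The repeated spots give the error of reading within an array. For Igf1 the SD of the 10 spots within an array lay between 0.04 and 0.12, while the arrays spanned 0.72 to 1.25. For Igf2 the spot SD lay between 0.07 and 0.16 and the arrays spanned 0.45 to 1.29. The spread over arrays also holds labelling, hybridisation and slide, which cannot be told apart from the mice with 1 array per mouse.

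**Figure D2:**
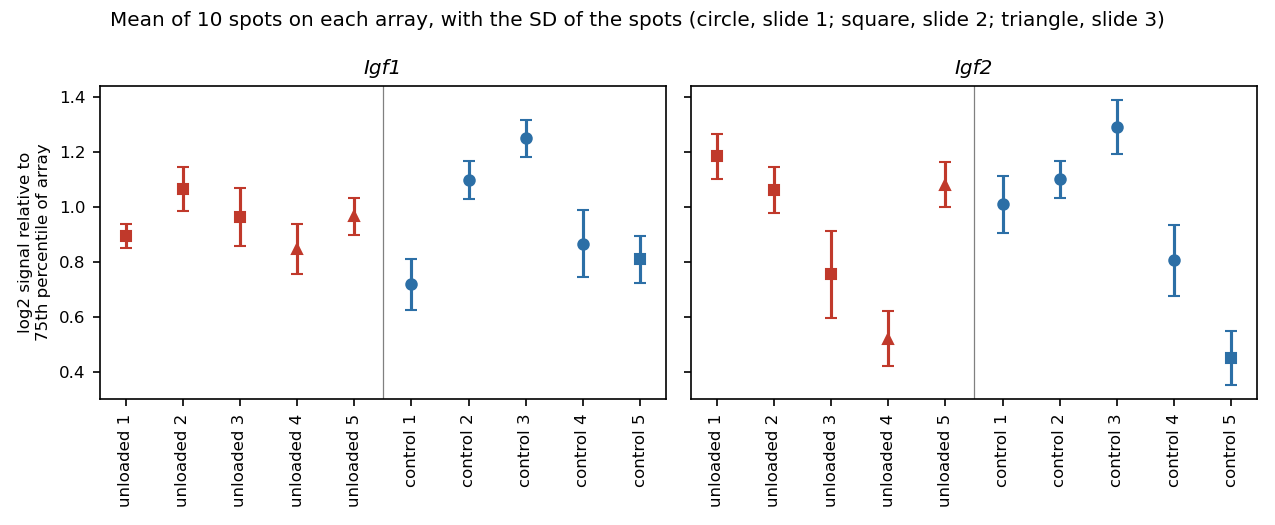
Mean log2 signal of Igf1 and Igf2 on each array with the SD of the 10 spots of the probe, unloaded mice left (red) and control mice right (blue), with the slide as the point's shape. The spot SDs stay at or below 0.12 for Igf1 and 0.16 for Igf2, while the arrays span 0.72 to 1.25 and 0.45 to 1.29.

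Igf1r, the signalling receptor for both ligands, had the largest difference of any IGF probe. A_51_P318365 gave -0.40, -0.00024, -0.48, -0.56 and -0.999 in unloaded mice 1 to 5, against -0.02, 0.01, 0.22, -0.36 and -0.29 in controls 1 to 5. Of the unloaded mice 4 lay below all controls, and unloaded mouse 2 lay among the highest controls, so that the groups overlapped. The mean was -0.49 ± 0.36 in unloaded and -0.09 ± 0.24 in control mice (SD, n = 5 each), a 1.32-fold lower signal (difference -0.40, SE 0.17, 95% interval -0.76 to -0.04). Its unadjusted p was 0.031 and its adjusted p 0.284 in the limma fit, and it was not called.

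Within slide 2 the Igf1r difference was 0.00013, where the 3 unloaded mice averaged -0.29 and control 5 was at -0.29. A fit with slide as a fixed block, which rests on slide 2, gave that value too (SE 0.26). The 2 unloaded mice of slide 3 averaged -0.78 and the 4 controls of slide 1 averaged -0.04. Without unloaded mouse 5 the difference was -0.27, and without unloaded mouse 2 it was -0.52.

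The second Igf1r probe, A_52_P668647, designed to a cDNA clone, gave -1.78 ± 0.21 in unloaded and -1.66 ± 0.05 in control mice (SD, n = 5 each). Its difference was -0.12 (SE 0.11, limma adjusted p = 0.537). Over the 10 arrays it had r = -0.38 and rho = -0.08 with the first probe, and r = -0.85 after the mean of each group was taken away.

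Outside the rule, 2 probes carry clone names that RefSeq lists as older names of Igf1r, without giving their strand or their place in the gene. A330103N21Rik (A_51_P474538) gave 0.35, 0.30, 0.34, -0.16 and -0.19 in unloaded mice 1 to 5, against 0.40, 0.65, 0.47, 0.47 and 0.39 in controls 1 to 5. All 5 unloaded mice lay below all 5 controls, as for 1.65% of all tested probes, and the difference was -0.35 (SE 0.13, limma adjusted p = 0.258). D930020L01 (A_52_P634111) differed by -0.27 (SE 0.13, limma adjusted p = 0.315) with overlapping groups. Their r with the main Igf1r probe was 0.77 and 0.65 over the 10 arrays, and 0.62 and 0.47 after the mean of each group was taken away. Within slide 2 their differences were -0.06 and -0.22. They were singled out after their values were seen, and neither was called.

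Igf2r, which removes IGF2 from the cell surface, gave 1.61, 1.27, 1.32, 0.95 and 1.51 in unloaded mice 1 to 5, against 1.61, 1.44, 1.14, 1.35 and 1.34 in controls 1 to 5. The highest mouse of each group was at the same level. The difference was -0.04 (SE 0.13, 95% interval -0.32 to 0.24, limma adjusted p = 0.880), and within slide 2 it was 0.06.

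**Figure D3:**
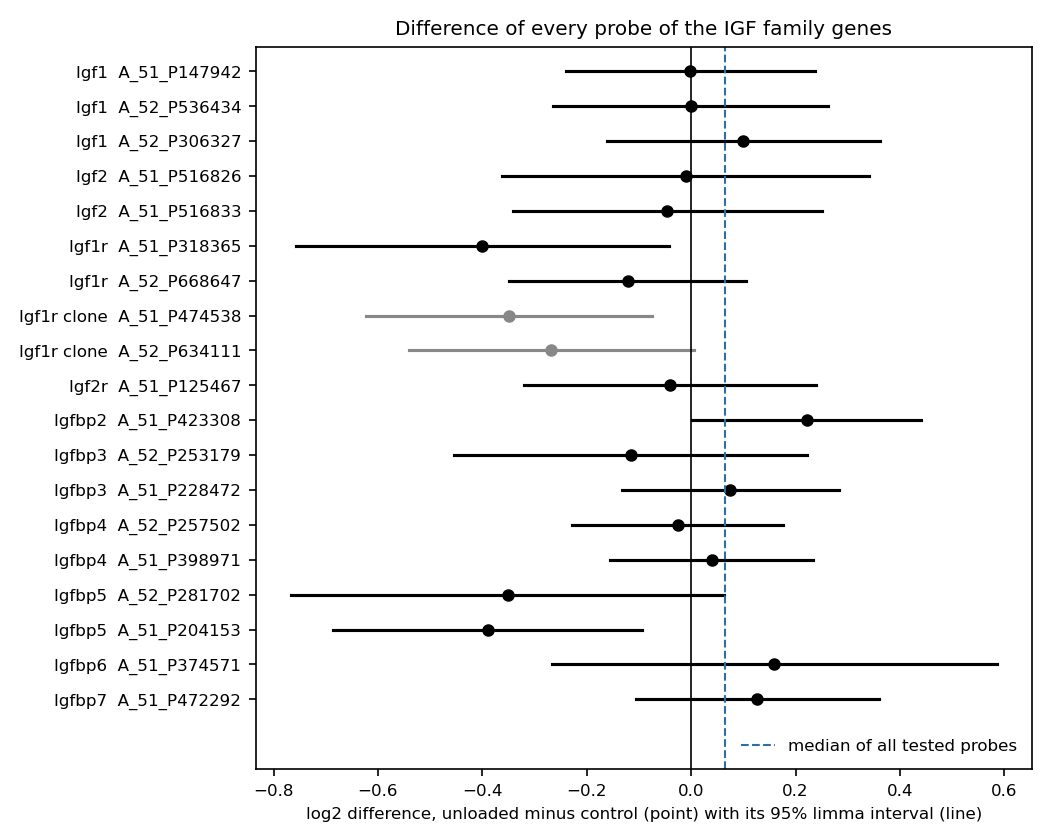
Log2 difference, unloaded minus control, of each of the 17 IGF probes (black) and of the 2 Igf1r clone probes outside the rule (grey), with the 95% limma interval as a line. The RefSeq probes of Igf1 lie at -0.0014 and -0.00098, and the intervals that exclude 0 are those of 1 Igf1r probe, 1 Igf1r clone probe, Igfbp2 and 1 Igfbp5 probe, none with an adjusted p below 0.05.

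Of the 9 probes for binding proteins, 5 had a positive and 4 a negative difference, and none was called. Igfbp2, a carrier with a strong affinity for IGF2, was the only IGF gene whose higher signal in unloaded mice had an interval above 0. It gave -1.35, -1.13, -1.04, -0.93 and -1.18 in unloaded mice 1 to 5, against -1.22, -1.29, -1.34, -1.54 and -1.34 in controls 1 to 5. Of the unloaded mice 4 lay above all controls, and unloaded mouse 1 lay below 4 of them. The difference was 0.22 (SE 0.10, 95% interval 0.0019 to 0.44), with an unadjusted p of 0.048 and a limma adjusted p of 0.308. It was positive with each array left out (0.17 to 0.28), within slide 2 (0.17) and with scaling to the median (0.13).

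Igfbp3, the main carrier of IGF in serum, had 2 probes that did not agree from mouse to mouse (r = -0.35). A_52_P253179 gave 0.13, 0.54, 0.04, -0.05 and -0.23 in unloaded mice 1 to 5, against 0.11, 0.41, 0.58, -0.02 and -0.06 in controls 1 to 5. Unloaded mouse 2 and controls 2 and 3 stood above the rest, 1 mouse from one group and 2 from the other. Its difference was -0.12 (SE 0.16, limma adjusted p = 0.70), and within slide 2 it was 0.30. The dimmer probe, A_51_P228472, differed by 0.07 (SE 0.10, limma adjusted p = 0.685).

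Igfbp4, an inhibitory binding protein that the protease PAPP-A cuts to release IGF, stood at the same level in both groups. Its brighter probe gave 1.56 ± 0.14 in unloaded and 1.58 ± 0.08 in control mice (SD, n = 5 each), a difference of -0.03 (SE 0.09, 95% interval -0.23 to 0.18, limma adjusted p = 0.896). The other probe gave 0.34 ± 0.12 in unloaded and 0.30 ± 0.07 in control mice, a difference of 0.04 (SE 0.09). The interval of this probe ran from -0.15 to 0.23, and these were the smallest standard errors of the 17 probes. Within slide 2 the differences were 0.10 and 0.16.

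Igfbp5, a binding protein that is abundant in bone matrix, was lower on average in unloaded mice on both of its probes. A_52_P281702 gave 2.17, 2.80, 2.05, 2.08 and 2.07 in unloaded mice 1 to 5, against 2.20, 2.94, 3.05, 2.54 and 2.19 in controls 1 to 5. Unloaded mouse 2 stood well above the other unloaded mice, and the other 4 lay just below the lowest control. The difference was -0.35 (SE 0.19, 95% interval -0.77 to 0.06, limma adjusted p = 0.360).

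The dimmer Igfbp5 probe, A_51_P204153, gave -2.32, -2.21, -2.62, -2.32 and -2.89 in unloaded mice 1 to 5, against -2.38, -1.96, -2.06, -2.10 and -1.91 in controls 1 to 5. Control 1 alone lay within the range of the unloaded mice. The difference was -0.39 (SE 0.14, 95% interval -0.69 to -0.09), with an unadjusted p of 0.014 and a limma adjusted p of 0.254, the smallest of the 17. The probes followed each other only in part (r = 0.62). Within slide 2 they went opposite ways, with differences of 0.15 for the brighter and -0.47 for the dimmer probe, against the single control there.

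Igfbp6, which prefers IGF2, gave 0.71, 0.74, 0.71, 0.54 and 1.69 in unloaded mice 1 to 5, against 0.45, 0.85, 1.07, 0.76 and 0.47 in controls 1 to 5. Apart from unloaded mouse 5 the unloaded mice lay within the range of the controls. The difference was 0.16 (SE 0.20, limma adjusted p = 0.672) with that mouse and -0.04 without it. Igfbp7, which binds IGF weakly and is made by vessel and stromal cells, gave 4.45 ± 0.15 in unloaded and 4.32 ± 0.17 in control mice (SD, n = 5 each), a difference of 0.13 (SE 0.11, limma adjusted p = 0.531). Within slide 2 the differences were 0.25 for Igfbp6 and 0.27 for Igfbp7.

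**Figure D4:**
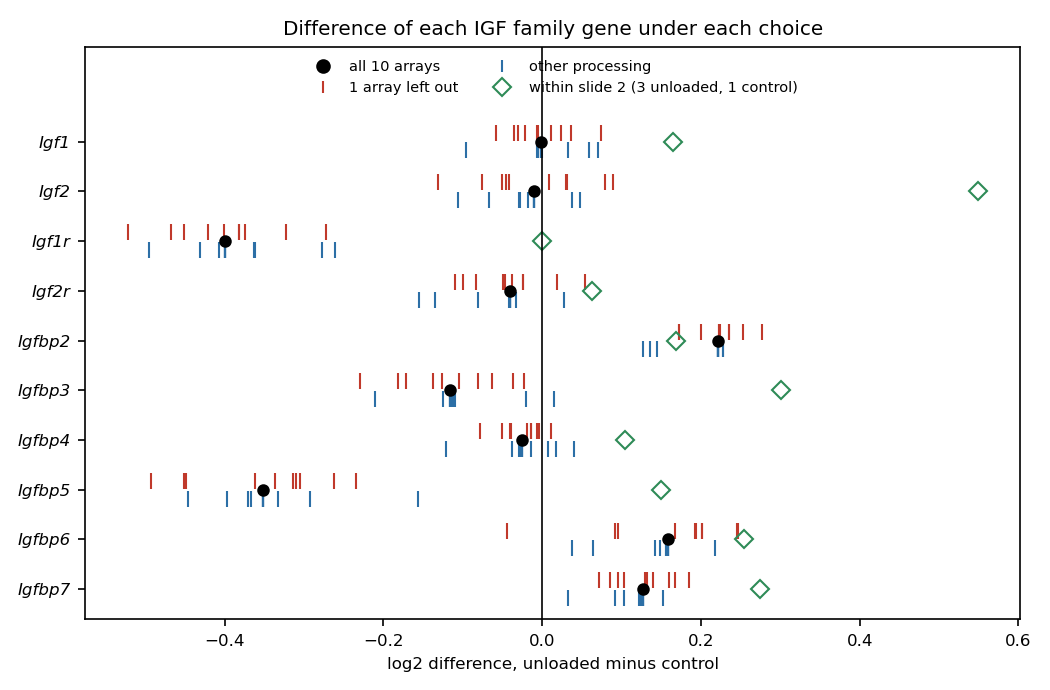
Log2 difference, unloaded minus control, of the brightest probe of each IGF gene with all 10 arrays (black), with 1 array left out (red ticks), under other processing (blue ticks) and within slide 2 (green diamonds, 3 unloaded mice against 1 control). The Igf1r difference runs from -0.52 to 0.00013 and that of Igfbp2 stays above 0, while Igf1 and Igf2 straddle 0.

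Several IGF genes varied together across mice. Over the 10 arrays, 9 of the 45 pairs of genes had a Pearson r of 0.7 or more. These values describe 10 arrays of 2 groups that share slides and tissue makeup, and no test was made of them. The highest were Igfbp3 with Igfbp5 (r = 0.87, rho = 0.72) and Igf1r with Igfbp3 (r = 0.87, rho = 0.79). Igfbp6 with Igfbp7 came next (r = 0.79, rho = 0.85). That pair had r = 0.90 without the 2 mice farthest from the median on Igfbp6. Among Igf1r, Igfbp3, Igfbp4 and Igfbp5 the 6 values of r lay between 0.56 and 0.87, the lowest for Igfbp4 with Igfbp5. They are for the brightest probe of each gene. The other Igfbp3 probe had r = -0.35, and the second Igf1r probe r = -0.38, with the brightest probe of its gene. After the mean of each group was taken away, Igf1r with Igfbp3 was at 0.93 and Igfbp3 with Igfbp5 at 0.89. Without the 2 mice farthest from the median on the first gene of the pair, the 6 values of r lay between 0.39 (Igfbp4 with Igfbp5) and 0.77 (Igf1r with Igfbp3).

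For Igf1r such a likeness was common on these arrays. Of 17710 other genes, 3.40% followed Igf1r at least as closely as Igfbp3 did and 10.5% at least as closely as Igfbp5 did. For Igfbp3 and Igfbp5 as a pair it was less common. Of the genes, 0.728% followed Igfbp3, and 0.644% followed Igfbp5, at least as closely as these 2 followed each other. For Igfbp3 the shares were 0.768% against Igf1r and 6.23% against Igfbp4, and for Igfbp5 they were 3.24% and 16.6%. For Igfbp4 such a likeness was common again. Of the genes, 14.0% followed Igfbp4 at least as closely as Igfbp5 did, 4.26% as Igf1r did and 3.96% as Igfbp3 did. By Pearson r, Igf1 followed Igfbp5 (r = 0.77, rho = 0.43) and Igfbp7 (r = 0.74, rho = 0.88) more than Igf2 (r = 0.60, rho = 0.71). By rho it followed Igf2 more than Igfbp5. By r, 0.723% of genes followed Igf1 at least as closely as Igfbp5 did. With the rest of the set Igf1 had r = 0.72 (Igfbp3), 0.39 (Igf1r) and 0.23 (Igfbp4). Igf2r and Igfbp2 had no r above 0.41 with any other IGF gene.

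The mice that were high for this set came from both groups. Unloaded mouse 2 and controls 2 and 3 were the highest 3 for Igfbp3 and for Igfbp5, and they were also the highest 3 for the mean of 6 endothelial markers (Pecam1, Cdh5, Kdr, Emcn, Tek and Egfl7), at 0.86 in unloaded mouse 2 and at 0.75 and 0.74 in controls 2 and 3. The other arrays lay between 0.41 and 0.66. Over the 10 arrays that mean had r = 0.89 with Igfbp3, 0.87 with Igfbp5, 0.76 with Igf1r and 0.75 with Igfbp4. Its level was 0.58 ± 0.17 in unloaded and 0.64 ± 0.12 in control mice (SD, n = 5 each), and its part in the IGF differences was not tested.

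Markers of other cell types moved with other members. The tendon and periosteum markers (5 genes) had r = 0.76 with Igf2, 0.74 with Igfbp5 and 0.73 with Igf1. The adipocyte markers (5 genes) had r = 0.71 with Igf1 and 0.70 with Igfbp6. They ran from 0.67 to 1.84 in unloaded and from 0.76 to 1.87 in control mice, and unloaded mouse 5 was the highest of its group. The marrow leukocyte markers (6 genes) had r = 0.69 with Igf1r and -0.66 with Igfbp6, and unloaded mouse 5 was lowest of all.

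All 58 marker genes were tested and none was called. Of the 11 bone markers, Col1a1 was at 6.96 ± 0.03 in unloaded and 6.88 ± 0.06 in control mice (SD over the mice with a value). Bglap was at 7.26 ± 0.24 and 7.22 ± 0.24, and Dmp1 at 3.21 ± 0.27 and 2.92 ± 0.30, so markers that define bone were present. The 12 skeletal muscle markers were measured as well, from 3.45 to 4.54 in unloaded and from 3.16 to 4.57 in control mice, and the 9 cartilage markers from 2.32 to 3.15 and from 2.13 to 2.93. The list means differed by 0.27 for cartilage, -0.16 for muscle and -0.18 for adipocytes. They differed by -0.10 to -0.06 for the endothelial, marrow leukocyte and tendon and periosteum lists. A list mean skips markers without a value on an array, which moved the bone and erythroid means, so their single genes are given. These differed by -0.10 (Sp7) to 0.55 (Mepe) for bone and by -0.30 (Epb42) to 0.20 (Alas2) for erythroid cells. A positive difference was seen for 10 of 11 bone, 9 of 9 cartilage, 1 of 12 muscle and 0 of 5 adipocyte markers. Over all tested probes 62.6% were positive. A difference in tissue makeup was not tested. Muscle also makes IGF1, and the muscle markers had r = 0.63 with Igf1. The part of muscle RNA in the Igf1 values was not tested.

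**Figure D5:**
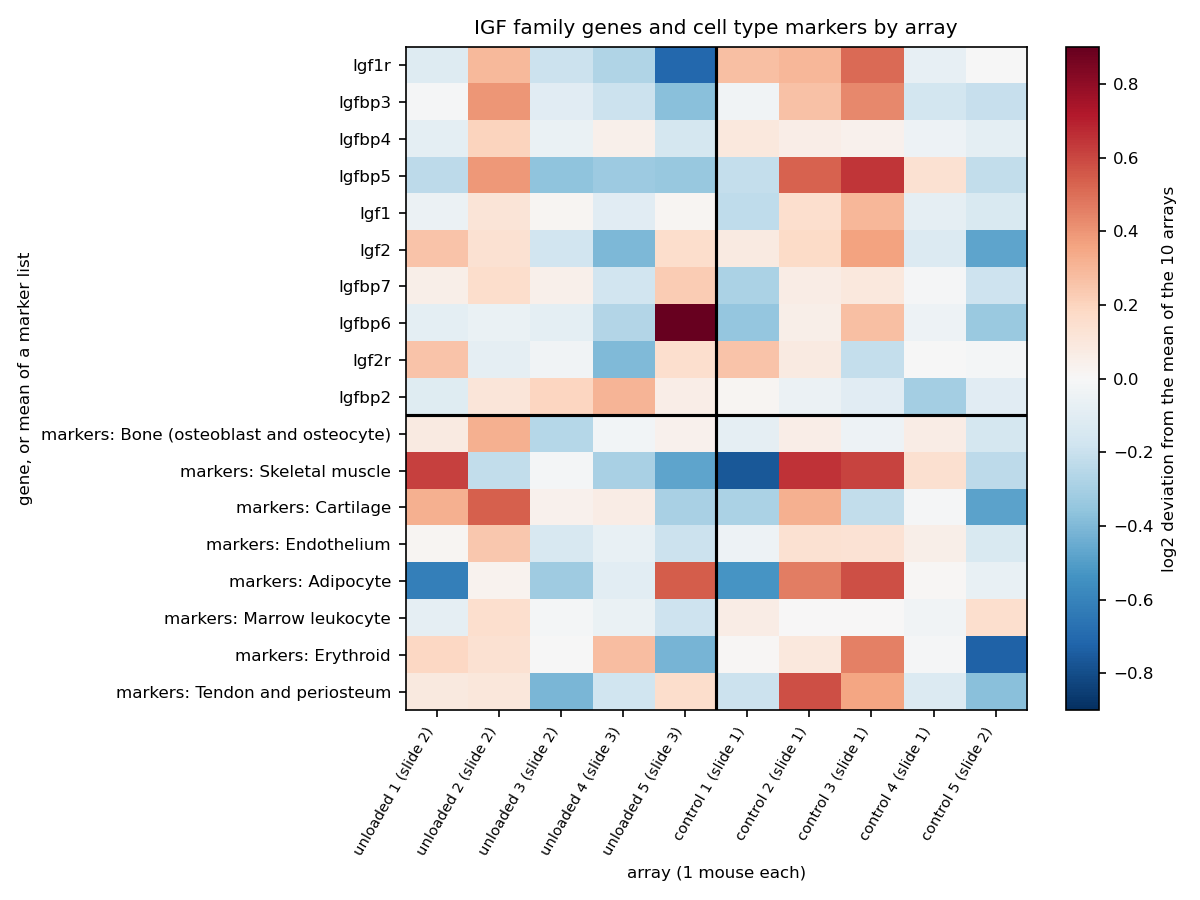
Deviation of each IGF gene (top) and of the mean of each cell type marker list (bottom) from its mean over the 10 arrays, on the log2 scale, with unloaded mice left of the vertical line and control mice right of it. Unloaded mouse 2 and controls 2 and 3 are high for Igfbp3, Igfbp5 and the endothelial markers, and unloaded mouse 5 is low for Igf1r and high for Igfbp6. A list mean skips markers without a value on an array, which moved the bone and erythroid rows.

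By the highest Pearson r over the 10 arrays among 17710 genes, the 3 genes most like each member were as follows. Igf1 was followed by Itm2a (r = 0.96), Jam3 and Spon1. Igf2 was followed by Fat4, Tns4 and Col3a1 (r between 0.90 and 0.92). Igf1r was followed by Vps26a (r = 0.98), Moap1 and Git2, which differed by -0.29, -0.31 and -0.31 between the groups. Igf2r was followed by Chst9, Tmem25 and Syn2. Among the binding proteins, the most alike were Lypd5 for Igfbp2, Sec23b for Igfbp3, Timp1 for Igfbp4, Cav2 for Igfbp5 (r = 0.98), Lrrn4cl for Igfbp6 and Fbln1 for Igfbp7 (r = 0.97). These are descriptions over 10 arrays and carry no test.

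Around the ligands and receptors, 49 genes of the growth hormone and IGF pathway were listed and 47 were tested, with 1 probe each. Igfbpl1 was not well above background on enough arrays, and Irs2 was not analysed here. None of the 47 was called, 19 had a positive and 28 a negative difference, and the median was -0.02. At an unadjusted p below 0.05 there were 3 higher and 7 lower, where 10.2% of all tested probes were higher and 5.92% lower. Over all tested probes that split was 3939 higher and 2286 lower, but 1386 and 4474 with scaling to the median and 2095 and 2938 with quantile normalization.

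Upstream, Ghr, the growth hormone receptor that drives Igf1 transcription, was at 0.80 ± 0.14 in unloaded and 1.07 ± 0.33 in control mice (SD, n = 5 each), a difference of -0.27 (SE 0.15, limma adjusted p = 0.353). Of its 5 probes 2 had this sign, and within slide 2 the difference was 0.21. None of the 6 genes of growth hormone signalling had an unadjusted p below 0.05, including Socs2 and Cish, which STAT5 induces, with differences of 0.16 and 0.09.

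Among the carriers, proteases and their inhibitors, 4 of 7 genes had an unadjusted p below 0.05, against 16.1% of all tested probes. That count was 1 with scaling to the median (Pappa), 2 with quantile normalization (Pappa and Stc2), 2 with normexp background correction, 2 with body weight as a covariate and 0 with slide as a fixed block. With 1 array left out it ran from 2 (without control 3, unloaded mouse 3 or unloaded mouse 5) to 4. Pappa, the protease that cleaves IGFBP4, gave 0.26, 0.30, 0.18, 0.11 and -0.10 in unloaded mice 1 to 5, against 0.52, 0.52, 0.41, 0.45 and 0.22 in controls 1 to 5. Of the unloaded mice 3 lay below all controls, and the difference was -0.27 (SE 0.10, limma adjusted p = 0.262), with the same sign on both of its probes. Within slide 2 it was 0.03.

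Stc1 and Stc2, stanniocalcins that inhibit pappalysins, went the other way. Stc2 gave 0.20, 0.07, 0.36, 0.13 and 0.60 in unloaded mice 1 to 5, against 0.04, 0.20, -0.13, -0.08 and -0.01 in controls 1 to 5. Control 2 overlapped the unloaded mice, and the difference was 0.27 (SE 0.11, limma adjusted p = 0.291), or 0.22 within slide 2. Stc1 differed by 0.31 (SE 0.11, limma adjusted p = 0.253), with the opposite sign on the other of its 2 probes, and by 0.26 within slide 2. Igfbp1, a binding protein made mainly by liver, differed by 0.32 (SE 0.14, limma adjusted p = 0.296), by 0.07 within slide 2, by 0.18 with body weight as a covariate and by 0.22 without unloaded mouse 5. Igfals, the acid-labile subunit of the serum complex, differed by -0.05 (SE 0.16).

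Downstream, all 9 genes of the PI3 kinase and Akt list had a negative difference, with a median of -0.20, where 62.6% of all tested probes were positive. Without unloaded mouse 5 there were 8 negative with a median of -0.13, and 8 were negative also with normexp background correction and without control 5, unloaded mouse 1 or unloaded mouse 3. Pdpk1, the kinase that activates Akt, differed by -0.30 (limma adjusted p = 0.283) and Pik3cb, a catalytic subunit of PI3 kinase, by -0.27 (limma adjusted p = 0.284). Without unloaded mouse 5 Pdpk1 differed by -0.20 and Pik3cb by -0.21. With quantile normalization, and with body weight as a covariate, 7 of the 9 were negative. For Pdpk1 and Pik3cb another probe of the same gene had the opposite sign, and the mean over the probes of Pdpk1 differed by -0.02 and that of Pik3cb by -0.06. Within slide 2 the 9 genes were negative with a median of -0.05.

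Foxo1, a transcription factor that Akt holds out of the nucleus, had the smallest p of the list. It gave 1.55, 1.82, 1.56, 1.47 and 1.14 in unloaded mice 1 to 5, against 1.80, 1.96, 1.80, 2.10 and 1.84 in controls 1 to 5. Unloaded mouse 2 alone reached the controls, and the difference was -0.39 (SE 0.12, limma adjusted p = 0.243), with the same sign on both probes and a value of -0.20 within slide 2. Insr, the insulin receptor, differed by -0.31 (SE 0.10, limma adjusted p = 0.252) on 1 of 2 probes, and by -0.18 within slide 2. Tsc1, an inhibitor of mTOR, differed by -0.32 (SE 0.15, limma adjusted p = 0.304), by -0.19 without unloaded mouse 5 and by 0.08 within slide 2. Irs1, the adaptor of both receptors, differed by 0.12 (SE 0.16, limma adjusted p = 0.713).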

How the data were processed

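The scanner files deposited for the 10 arrays hold a linear intensity for each spot. Agilent Feature Extraction 9.1.3.1 made it (protocol GE1-v5_91_0806, array design 014868), per the file headers, and the processed intensity used here had its background subtracted and was not scaled between arrays. The deposited series matrix holds the same intensity rounded, with ratios to the processed signal of 0.995 to 1.005, so its scale is known, it is not centred and a single colour leaves no direction to settle. Its column medians were 315, 269, 253, 311 and 291 for unloaded mice 1 to 5 and 335, 332, 303, 261 and 306 for controls 1 to 5.

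Spots marked as outliers were left out (97 of the gene spots over all arrays), spots of a probe were averaged as log2 values, and the array's 75th percentile (637 to 903 intensity units) was subtracted. Between 89.8% and 95.5% of spots were well above background. A probe entered the test with at least 4 such arrays in either group of 5 and a value on 3 or more arrays per group. Names came from RefSeq tables (GRCm38.p6), by accession for 22951 probes, by an older name for 3109, and unchanged for the other probes. The tested probe with the highest mean stood for a gene. Groups, taken from the sample titles, were compared with limma 3.58.1 (lmFit and eBayes, two-sided) in R 4.3.3, with no covariate. The script recovered most of the largest known changes when tested on simulated data. Those changes were larger than any IGF difference here and the simulated arrays held no slide effect, so smaller differences were not examined. Precision is limited by the 5 arrays per group. The labels number separate animals, so the spread is between mice. No label says that the replicate numbers pair the mice, so they were not treated as pairs.

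The members and the pathway and marker lists were chosen with earlier results of these data known. All members are named with every probe. Of the pathway list the text names the 10 genes with the smallest p and Ghr, Irs1, Insr, Igfals, Igfbp1, Pappa and Stc2, with a few others as examples. One of these genes is not reported here. For likeness it names the 3 genes with the highest r per member, or the first of them. Alternatives covered background correction (normexp, offset 50), scaling, slide, the series matrix, the filter on dim probes, the replicate number, the variance model, array weights, body weight, the probe used and each array left out.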

Additional observations from a re-analysis of the deposited data

Results flagged for a closer look

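Of 64 groups of 5 mice examined, 1 for each probe and group, 6 held a mouse whose gap to its nearest neighbour exceeded 0.71 of the group's range, Dixon's critical value for 5 samples. Chance gives about 1 such group in 20.

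Among the IGF genes, unloaded mouse 5 stood at 1.69 for Igfbp6, where the other unloaded mice lay between 0.54 and 0.74. The same mouse stood at 0.13 for the dimmer Igfbp4 probe (A_51_P398971), where the others lay between 0.34 and 0.42. Its array had the lowest correlation with the other arrays, the lowest array weight in limma (0.375) and the lowest share of spots well above background (89.8%). Unloaded mouse 2 stood at 2.80 for the brighter Igfbp5 probe (A_52_P281702), where the others lay between 2.05 and 2.17, and it was the highest of the unloaded mice for the endothelial markers.

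In the pathway list, control 2 stood at -2.51 for Igfals, where the other controls lay between -3.07 and -2.92. The same control stood at -2.03 for Stc1, where the others lay between -1.75 and -1.66. Control 5 stood at -1.27 for Tsc1, where the others lay between -1.05 and -0.99.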

How the results depend on the processing

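No IGF probe and no gene of the pathway list was called under any alternative fit, and the smallest adjusted p of an IGF probe over them was 0.114, for Igf1r without unloaded mouse 2. Over all tested probes 1 was called, against 0 with body weight as a covariate, 3 with slide as a fixed block and 0 to 2 with 1 array left out (2 without control 2, and 0 without control 4, control 5 or unloaded mouse 4). Igfbp2, Igfbp7, the second Igf1r probe, the dimmer Igfbp5 probe and both Igf1r clone probes kept their sign under every alternative run. The differences of Igf1r (main probe) and Igfbp5 (brighter probe) kept theirs except with slide as a fixed block and within slide 2, which there give the same value. With the replicate number as a block, 0 IGF probes and 1 probe in all were called. Each number occurs once per group, so this block left the differences of the IGF probes as they were and could change no sign. Mice of the same number had correlations of their deviations between -0.14 and 0.18.

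The values that changed sign were as follows, and the cause was not tested. With slide as a fixed block, and equally within slide 2, they were 0.17, 0.17 and -0.040 for Igf1 (A_51_P147942, A_52_P536434 and A_52_P306327), 0.55 and 0.43 for Igf2 (A_51_P516826 and A_51_P516833), 0.00013 for Igf1r, 0.063 for Igf2r, 0.30 and -0.11 for Igfbp3 (A_52_P253179 and A_51_P228472), 0.10 for Igfbp4 (A_52_P257502), 0.15 for Igfbp5, 0.21 for Ghr, 0.15 for Igfals, 0.028 for Pappa and 0.075 for Tsc1. With normexp background correction A_52_P536434 of Igf1 was at 0.0046, and with array weights at 0.025. Scaling to the median, which moved all probes by a median of -0.10, gave -0.020 for A_51_P228472 of Igfbp3 and -0.056 for A_51_P398971 of Igfbp4. Quantile normalization, which moved them by -0.08, gave 0.059, 0.054 and -0.00094 for Igf1 (in the order above), 0.048 for Igf2 (A_51_P516826), 0.028 for Igf2r, -0.032 for A_51_P228472 of Igfbp3 and 0.040 for A_52_P257502 of Igfbp4. With body weight as a covariate Igf1 was at 0.070 and 0.10 (first and second probe), Igf2 at 0.038, Igfbp3 at 0.015, Igfbp4 at 0.017 and Igfals at 0.033. With the mean over the probes of a gene Igf1 was at 0.033 and Igfbp4 at 0.0068.

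With 1 array left out, signs changed for Igf1 (-0.059 to 0.074 and -0.067 to 0.093 for its first and second probe), Igf2 (-0.13 to 0.089 and -0.16 to 0.013), Igf2r (-0.11 to 0.055), Igfbp4 (A_52_P257502, -0.078 to 0.011), Igfbp6 (-0.045 without unloaded mouse 5, up to 0.25) and Igfals (-0.12 to 0.056). With 5 arrays a group and an SE of 0.09 to 0.20 on the IGF probes, small differences cannot be detected.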
